A study of Mus musculus with 24 samples.

Results

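The genes described here are 48 genes, most of them chromatin regulators that write, read or remove histone methylation, or that add or remove histone acetyl groups. They were chosen by name, with earlier results of these data known. They comprise 5 genes of Polycomb repressive complex 2, 6 of Polycomb repressive complex 1, Asxl1 of the Polycomb deubiquitinase, 12 other histone methyltransferases, 9 lysine demethylases, 12 deacetylases including 5 sirtuins, and 3 acetyltransferases. All 48 were found among the 55414 gene rows of the count files, and all 48 were among the 19616 genes with enough counts to be tested.

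The measurements are RNA-seq counts from LSK cells, the lineage-negative, Sca-1+ and Kit+ bone marrow fraction that holds the stem cells and early progenitors of blood. The cells came from 21-day-old mouse pups, and the dams, labelled C57BL/6J, ate control chow or a Western diet to induce obesity, starting 4 weeks before mating and lasting through lactation. Sex and maternal diet made 4 groups of 6 libraries (control females, Western-diet females, control males and Western-diet males), and each of 3 labelled batches held 2 libraries of every group. No group carried a genetic modification. Because the labels name no dam or litter, pups of the same dam cannot be recognised, and p-values rest on library-to-library spread alone.

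Histones are the proteins that DNA is wound around, and enzymes attach or remove small groups on their tails. Polycomb repressive complex 2 methylates histone H3 at lysine 27, Polycomb repressive complex 1 marks histone H2A with ubiquitin, and both are known for keeping developmental genes silent in blood stem cells. The Kmt2 and Setd1 enzymes methylate H3 at lysine 4, a mark of active genes, and are known for maintaining blood stem cell programs, while deacetylases remove the acetyl groups that Crebbp, Ep300 and Kat6a add.

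Gene counts per library ran from 38057263 to 51581968, and levels are given as CPM, counts scaled to a common library size. Libraries of the same group differed from each other far beyond counting error, with a chi-square over genes of 19.2 or more per degree. No library was thus a copy of another of its group, and pairs across groups were not compared in this way. On the first principal component, which held 17.5% of the variance, control female libraries 5 and 6, both of batch 3, lay apart from the other 22 libraries. Stem cell markers such as Kit, Ly6a (Sca-1), Cd34 and Flt3 were present in every group, and no marker of the 12 lists examined was at 0 in all 6 libraries of any group. In control female libraries 5 and 6, Ly6a had only 2.14 and 4.41 CPM, Cd34 229 and 227 CPM and Flt3 148 and 192 CPM. These were the lowest values of their group, while Kit, at 565 and 490 CPM, lay within the range of the other control females.

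All 48 genes were expressed, and most at a level above the typical gene. Levels between genes are compared here as CPM per kb of exon, averaged over 24 libraries. The median of the 48 was 7.14 CPM per kb against 2.55 for all genes tested, and 43 of 48 lay above that all-gene median. The range was wide, from Hdac1 at 82.4 ± 8.01 (SD, n = 24) down to Hdac9 at 0.745 ± 0.277.

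**Figure D1:**
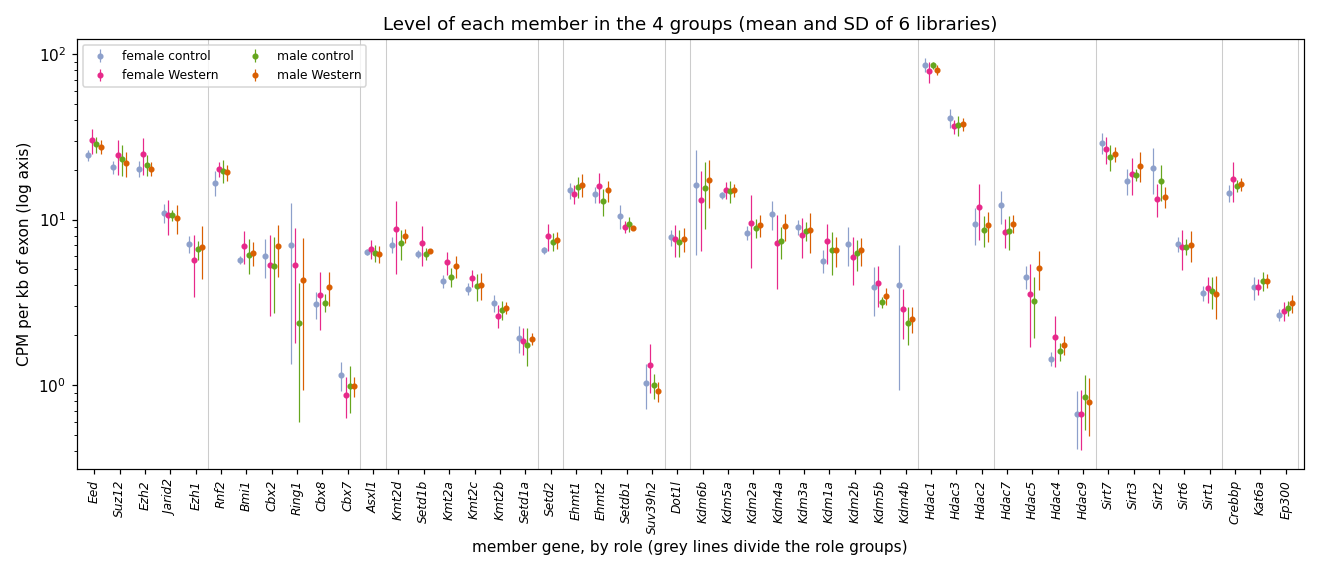
Mean level of each of the 48 genes in the 4 groups, in CPM per kb of exon on a log axis, with the SD over 6 libraries as bars and grey lines between role groups. Hdac1 stands highest, Hdac9, Cbx7 and Suv39h2 lowest, and Ring1 has the longest bars.

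The core of Polycomb repressive complex 2 was among the most abundant parts of the set. Eed, the subunit that binds the complex's own methyl mark, had 27.7 CPM per kb, Suz12, the scaffold, 22.6, and Ezh2, the catalytic subunit, 21.7. Ezh1, the alternative catalytic subunit, had a lower level of 6.56 CPM per kb, and Jarid2, an accessory subunit that helps recruit the complex, had 10.6. The catalytic subunits differed in spread too: across libraries Ezh2 ran from 114 to 219 CPM and Ezh1 from 19.3 to 84.6 CPM.

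In Polycomb repressive complex 1 the ubiquitin ligase Rnf2 (Ring1b) led with 18.9 CPM per kb. Bmi1, its ring finger partner needed for blood stem cell self-renewal, had 6.27 CPM per kb, Cbx2 5.89, Cbx8 3.41 and Cbx7 0.999. The Cbx proteins are the chromodomain subunits that read the Polycomb mark. Ring1, the paralog of Rnf2, averaged 4.75 CPM per kb and varied more between libraries of a group than any other of the 48. Asxl1, a subunit of the Polycomb deubiquitinase, had 6.39 CPM per kb and ran only from 38.4 to 56.5 CPM.

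The H3 lysine 4 methyltransferases sat close together. Kmt2d led with 7.77 CPM per kb, followed by Setd1b at 6.52, Kmt2a (Mll1) at 4.87, Kmt2c at 4.06, Kmt2b at 2.89 and Setd1a at 1.86. Of the exonic bases of Setd1a, 52.3% are shared with other annotated genes, so its level and its place in this order are uncertain. The lysine 9 enzymes Ehmt1 and Ehmt2, which work as a pair, had 15.3 and 14.5 CPM per kb, Setdb1, known for silencing retroelements, 9.47, and Suv39h2, an enzyme of constitutive heterochromatin, 1.07. Dot1l, which methylates lysine 79, had 7.58 CPM per kb, and Setd2, which methylates lysine 36 in transcribed gene bodies, had 7.32.

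Among the demethylases, Kdm6b, which removes the Polycomb mark on lysine 27, had the highest mean, 15.6 CPM per kb, and the second widest relative spread of the 48. Kdm5a, a lysine 4 demethylase, had nearly the same mean, 14.7 CPM per kb, and a narrow range of 174 to 252 CPM. Kdm2a had 9.02, Kdm4a 8.64, Kdm3a 8.57, Kdm1a (Lsd1) 6.54, Kdm2b 6.46, Kdm5b 3.66 and Kdm4b 2.93 CPM per kb. Kdm1a removes methyl groups from lysine 4 by a flavin-dependent reaction, and Kdm2b links DNA rich in CG dinucleotides to a form of Polycomb repressive complex 1.

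Class I deacetylases were the best expressed role group, with Hdac1 at 82.4, Hdac3 at 38.1 and Hdac2 at 9.79 CPM per kb. Hdac1 and Hdac2 are the paired catalytic subunits of the Sin3, NuRD and CoREST complexes, and Hdac3 is that of the NCoR complex. The class IIa enzymes, which shuttle between nucleus and cytoplasm, were lower: Hdac7 had 9.64, Hdac5 4.10, Hdac4 1.68 and Hdac9 0.745 CPM per kb. The sirtuins, deacylases that consume NAD, ranged from Sirt7 at 26.2 through Sirt3 at 18.9, Sirt2 at 16.2 and Sirt6 at 6.96 to Sirt1 at 3.67. Of the acetyltransferases, Crebbp had 16, Kat6a (Moz) 4.09 and Ep300, the paralog of Crebbp, 2.88 CPM per kb.

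Within groups, these genes varied less than most. Their median coefficient of variation was 17.6% against 27.3% for all genes tested, and 42 of 48 lay below that all-gene median. Spread and level are linked in count data, and the 48 were not matched to other genes of their level. Hdac1 had the smallest coefficient, 8.98%, followed by Setdb1 at 9.33%. Ring1 had the largest, 74.9%, followed by Kdm6b at 47.1%, Cbx2 at 40.2%, Kdm4b at 38.5% and Hdac9 at 38.2%.

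Ring1 is described for this spread, which was seen before it was singled out. It ran from 1.98 CPM in control male library 1 to 53.1 CPM in control female library 5, a 26.9-fold range resting on 71 to 2134 counts. In control females its lowest, median and highest values were 5.25, 18.1 and 53.1 CPM, and in Western-diet females 2.03, 23.1 and 26.8 CPM. Control males ran over 1.98, 6.91 and 17.2 CPM and Western-diet males over 3.82, 9.53 and 34.4 CPM. The ranges of all 4 groups overlapped, but 3 of 6 control females and 4 of 6 Western-diet females lay above every control male. In Western-diet females the low values were libraries 5 and 6, at 3.34 and 2.03 CPM, while the other 4 had 21.6 to 26.8 CPM.

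A few libraries held many of the extreme values. Western-diet female library 3 was the highest of 24 for 14 of the 48 genes and control female library 5 for 9, while control male library 1 was the lowest for 11 and Western-diet female library 5 for 10. Western-diet female library 3 also had the largest share of reads outside annotated genes, 16.38% against a median of 9.97%, and the part of that share in its high values was not tested. For 13 of the 48 genes, Western-diet female libraries 5 and 6, the pair of batch 3, both lay below the other 4 libraries of their group. These 13, seen before they were grouped, were Ring1, Cbx2, Cbx7, Kmt2d, Kdm2a, Kdm2b, Kdm4b, Kdm5b, Kdm6b, Hdac3, Hdac5, Hdac7 and Sirt7. The counts of this paragraph were not set beside shares over all genes. Whether they are particular to the 48 was therefore not tested.

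The main question of the design is whether a maternal Western diet changed these genes in the pups' LSK cells. In females, Sirt2 fell and no other of the 48 genes passed the test. That is 1 of 48 (2.08%) against 5.42% of all genes tested, by edgeR's quasi-likelihood test with Benjamini-Hochberg adjustment over 19616 genes at 0.05. No member rose, against 2.20% of all genes, and the 1 that fell compares with 3.22% of all genes. In none of the 48 were the 6 Western-diet libraries all above or all below the 6 controls, a separation that 1.18% of all genes showed. In bulk RNA of a sorted fraction, fewer cells of a type and less RNA per cell cannot be told apart.

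Sirt2 encodes an NAD-dependent deacetylase that is mostly cytoplasmic, acting on tubulin and, during mitosis, on histone H4. Its lowest, median and highest values were 71.3, 101 and 154 CPM in control females and 45.5, 67.7 and 89.2 CPM in Western-diet females. All 6 Western-diet libraries lay below the control mean and 4 lay below every control library, but the ranges overlapped. The fitted difference was -0.60 ± 0.16 (log2, SE, n = 6 per group), or 1.52-fold lower, with an edgeR adjusted p of 0.0315. Within batches 1, 2 and 3 the difference of mean log2 CPM was -0.19, -0.66 and -0.97, the same sign with unequal size.

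The call on Sirt2 in females was lost under 13 of 38 alternatives, including limma-voom (adjusted p = 0.0841), a fit of only the female groups (edgeR, 0.0983), batch 2 or 3 left out (0.125 and 0.344) and either female pair of batch 3 left out (0.319 without the controls, 0.159 without the Western-diet pair). Its adjusted p in edgeR became 0.0721, 0.0758, 0.101 and 0.0715 without control female library 1, 3, 5 or 6, and 0.0713 and 0.0967 without Western-diet female library 4 or 5, while the log2 difference lay between -0.85 and -0.42 under all alternatives tried. The highest Sirt2 values, 154 and 124 CPM, were those of control female libraries 5 and 6, the pair that lay apart on the first principal component, which also had the highest levels of the erythroid factor Gata1 (465 and 409 CPM), and the part of this in the result was not tested. Of its 5035 exonic bases, 42 overlap Nfkbib, an NF-kB inhibitor gene on the opposite strand, and the library kit does not mark strand. Nfkbib itself differed by -0.25 ± 0.09 (log2, SE) in females, with an edgeR adjusted p of 0.0818.

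Kmt2a, the H3 lysine 4 methyltransferase rearranged in mixed-lineage leukaemia, was the nearest to a call after Sirt2. Its lowest, median and highest values were 63.4, 69.8 and 80.1 CPM in control females and 73.0, 88.4 and 118 CPM in Western-diet females. Of the 6 Western-diet libraries, 5 exceeded every control and the sixth lay within the control range. The log2 difference was 0.37 ± 0.11 (SE), with an edgeR adjusted p of 0.0560. It had the same sign in all 3 batches, at 0.28, 0.55 and 0.26.

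The sequences upstream of these genes are shown for Sirt2 and Kmt2a, the only members called in any diet comparison. They come from RefSeq on mouse build GRCm38.p6, were cut to the bases before the transcription start that lie in no annotated exon, and are written 5′ to 3′ along the gene's strand with CG dinucleotides in capitals. The Sirt2 stretch is chr7:28766641-28766734 on the plus strand and the Kmt2a stretch is chr9:44881297-44881539 on the minus strand.
Sirt2: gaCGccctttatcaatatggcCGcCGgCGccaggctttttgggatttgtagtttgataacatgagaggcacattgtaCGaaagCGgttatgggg
Kmt2a: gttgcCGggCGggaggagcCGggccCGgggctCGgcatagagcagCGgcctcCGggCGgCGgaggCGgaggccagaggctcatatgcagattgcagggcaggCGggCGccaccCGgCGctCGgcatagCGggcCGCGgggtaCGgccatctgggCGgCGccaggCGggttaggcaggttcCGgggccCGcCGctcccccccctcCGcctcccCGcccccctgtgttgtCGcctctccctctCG
The Sirt2 stretch of 94 bases holds 6 CG and the Kmt2a stretch of 243 bases holds 29.

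Over the full 250 bases before the start, RefSeq windows were matched for 38 of the 48 genes, 51 windows in all. They held a median of 22 CG against 6 over all 32851 windows of that length. TTCCGG, the core of an ETS-factor motif, was present on either strand in 27.5% of members' windows against 12% of all, and the E-box CACGTG in 9.8% against 6.02%. An E2F-type motif with the letters GCGGGAA was present in 7.84% against 3.82%, a GATA motif with the letters GATAAG in 5.88% against 6.55%, and the TATA motif TATAAA in 3.92% against 12.4%. The members' starts were thus richer in CG and poorer in TATAAA than the average window, which describes the letters and not the binding of any factor. The windows compared with were not limited to genes tested here, and some members supplied several windows that were counted separately. Whether these differences are particular to the members was not tested. The Sirt2 window held none of the 5 motifs and the Kmt2a window held only TTCCGG.

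None of the Polycomb genes among the 48 passed the test in females. Eed had lowest, median and highest values of 85.5, 90.7 and 104 CPM in controls and 83.6, 118 and 143 CPM in Western-diet females, with 5 of 6 Western-diet libraries above every control and 1 below every control. On the log2 scale it differed by 0.30 ± 0.11 (SE; edgeR adjusted p = 0.102). Ezh2 ran over 120, 130 and 157 CPM in controls and 122, 157 and 219 CPM in Western-diet females. These ranges overlapped in their lower part, and the log2 difference was 0.30 ± 0.14 (edgeR adjusted p = 0.218).

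Ezh1 had the opposite sign to Ezh2. It ran over 42.5, 53.7 and 61.2 CPM in control females and 19.3, 42.0 and 69.7 CPM in Western-diet females, so the Western-diet libraries spread beyond the controls at both ends. Its difference on the log2 scale was -0.32 ± 0.22 (edgeR adjusted p = 0.422). Of the other subunits, Suz12 differed by 0.25 ± 0.15 and Jarid2 by -0.05 ± 0.14, neither past the test.

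For Polycomb repressive complex 1, Rnf2 ran over 55.5, 68.4 and 83.2 CPM in control females and 69.4, 82.9 and 97.1 CPM in Western-diet females. All 6 Western-diet libraries exceeded the control mean and 3 exceeded every control. The log2 difference was 0.28 ± 0.10 (edgeR adjusted p = 0.0990). Bmi1 ran over 21.1, 23 and 24.4 CPM in controls and 20.9, 25.1 and 36.9 CPM in Western-diet females, with 5 of 6 above every control and 1 below every control, and differed by 0.29 ± 0.15 (edgeR adjusted p = 0.285). Cbx7 differed by -0.40 ± 0.21, Cbx2 by -0.23 ± 0.30, Cbx8 by 0.15 ± 0.13, Asxl1 by 0.06 ± 0.10 and Ring1 by 0.01 ± 0.68, none past the test.

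Among the other methyltransferases, Setd2 ran over 64.6, 70.5 and 75.1 CPM in control females and 72.5, 78.9 and 115 CPM in Western-diet females. All 6 Western-diet libraries lay above the control mean, and they differed by 0.28 ± 0.11 on the log2 scale (edgeR adjusted p = 0.137). Kmt2b, the closest paralog of Kmt2a, had the opposite sign: 25.3, 30.7 and 34 CPM in controls against 22.1, 23.2 and 31.8 CPM, with 4 of 6 Western-diet libraries below every control. Its log2 difference was -0.26 ± 0.11 (edgeR adjusted p = 0.152). The remaining 8, Kmt2c, Kmt2d, Setd1a, Setd1b, Setdb1, Ehmt1, Ehmt2 and Dot1l, differed by -0.20 to 0.28 without passing, and Suv39h2 by 0.36 ± 0.20.

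Kdm4a, a demethylase of lysines 9 and 36, had the largest difference of the demethylases in females. It ran over 51.1, 61.2 and 84.6 CPM in controls and 18.5, 40.5 and 66.6 CPM in Western-diet females. Western-diet libraries of batch 1 lay within the control range and the 4 of batches 2 and 3 lay below every control. The log2 difference was -0.60 ± 0.24 (edgeR adjusted p = 0.155), equal in size to that of Sirt2 with a wider error, and within batches it was 0.19, -0.97 and -1.34. Kdm1a differed by 0.42 ± 0.18 without passing.

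Kdm6b ran over 59.6, 83.3 and 242 CPM in control females and 33.7, 97.9 and 140 CPM in Western-diet females. The control range contained most of the Western-diet values, and the log2 difference was -0.32 ± 0.24 (edgeR adjusted p = 0.471). Kdm4b differed by -0.39 ± 0.32, Kdm2b by -0.28 ± 0.18, Kdm3a by -0.16 ± 0.16, Kdm2a by 0.17 ± 0.16, Kdm5a by 0.10 ± 0.09 and Kdm5b by 0.08 ± 0.18. None of these passed.

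The class IIa deacetylases pointed in different directions in females. Hdac7, known for its role in lymphoid and endothelial cells, ran over 65.7, 78.3 and 116 CPM in controls and 43.0, 57.4 and 69.6 CPM in Western-diet females. All 6 Western-diet libraries were below the control mean and 4 below every control, with a log2 difference of -0.53 ± 0.17 (edgeR adjusted p = 0.0657). Hdac4 ran over 20.8, 22.2 and 26.9 CPM in controls and 21.0, 30.1 and 50.3 CPM in Western-diet females, with 4 of 6 above every control. Its difference was 0.43 ± 0.16 (edgeR adjusted p = 0.108). Of its exonic bases, 22.4% are shared with a gene on the opposite strand, and reads from the shared bases cannot be told apart. Hdac5 differed by -0.41 ± 0.30 and Hdac9 by 0.05 ± 0.22, neither past the test.

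Hdac1, the most abundant of the 48, ran over 262, 302 and 326 CPM in control females and 209, 276 and 312 CPM in Western-diet females, overlapping over most of both ranges. It differed by -0.13 ± 0.08 on the log2 scale (edgeR adjusted p = 0.374). Hdac2 differed by 0.33 ± 0.22 and Hdac3 by -0.16 ± 0.10, and neither passed. Sirt1, the best studied nuclear sirtuin, ran over 16.3, 19.6 and 21.4 CPM in controls and 15.4, 19.9 and 25.6 CPM in Western-diet females. Its difference of 0.10 ± 0.16 (edgeR adjusted p = 0.781) took the other sign, -0.01, in limma-voom. Sirt3, Sirt6 and Sirt7 differed by 0.14 ± 0.12, -0.06 ± 0.15 and -0.12 ± 0.12, so Sirt2 was the only sirtuin past the test. Whether it differed from the other sirtuins was not tested.

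For the acetyltransferases, Crebbp ran over 169, 193 and 234 CPM in control females and 178, 222 and 360 CPM in Western-diet females. The ranges overlapped and the highest value was that of library 3. The log2 difference was 0.28 ± 0.12 (edgeR adjusted p = 0.169), while its paralog Ep300 differed by 0.08 ± 0.08 and Kat6a by 0.02 ± 0.10.

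**Figure D2:**
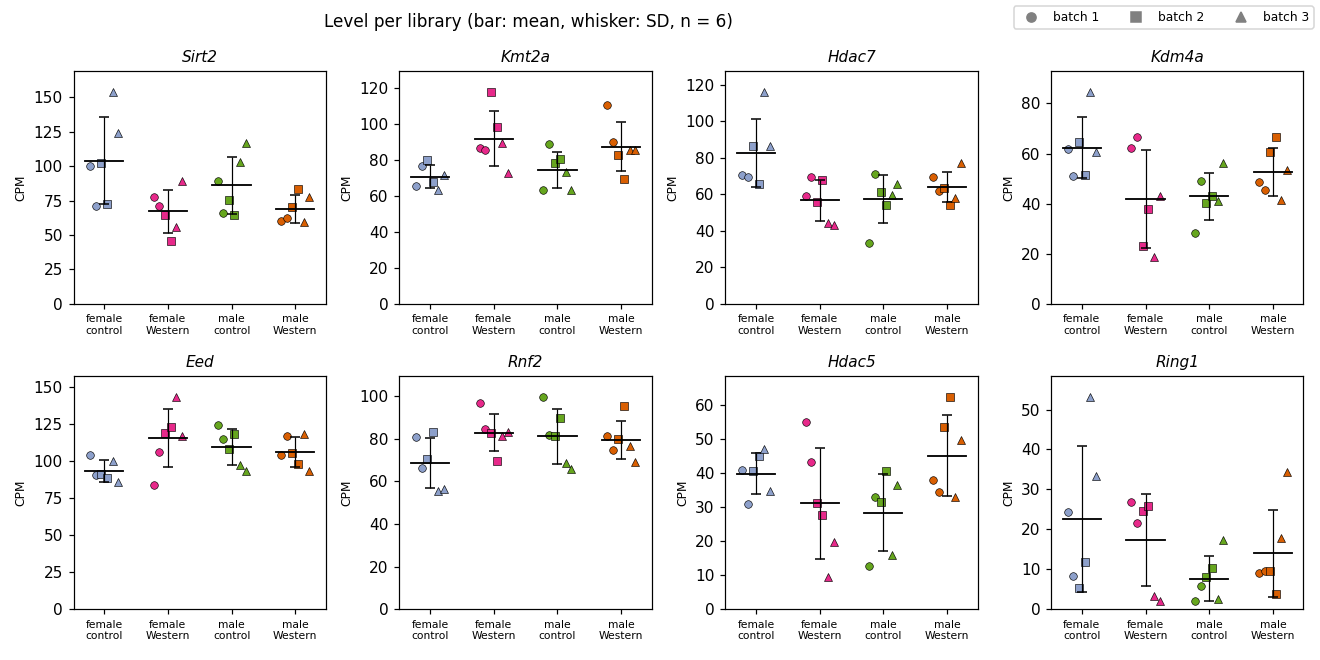
Level in CPM of 8 genes in every library, by group on the horizontal axis, with batch as the marker shape, the mean as a bar and the SD of 6 libraries as a whisker. Sirt2 is lower in Western-diet than control females (45.5 to 89.2 against 71.3 to 154 CPM) with overlap, and the low Ring1 values of Western-diet females are those of batch 3.

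At an unadjusted p under 0.05, 13 of 48 genes (27.1%) differed in females, 8 higher and 5 lower, against 21.3% of all genes tested. The median log2 difference of the 48 was 0.05 and that of all genes 0.03. The members as a list therefore lay close to the background of this comparison in count and in median difference.

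In males no member passed the edgeR test. That compares with 0.0102% of all genes, or 2 of 19616, and at an unadjusted p under 0.05 with 2 of 48 members and 8.45% of all genes. DESeq2 and limma-voom also called no member in males. The median log2 difference of the 48 in males was 0.03 against 0.02 over all genes.

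Sirt2 ran over 64.8, 82.4 and 117 CPM in control males and 59.1, 66.5 and 83.3 CPM in Western-diet males. All 6 Western-diet males lay below the control mean and 3 below every control, with a log2 difference of -0.28 ± 0.16 (edgeR adjusted p = 0.662). The highest male Sirt2 values, 103 and 117 CPM, were those of control male libraries 5 and 6, of batch 3. That pair also had the highest Gata1 among males (307 and 304 CPM), and the part of this in the result was not tested. Kmt2a ran over 63.6, 76.0 and 89.1 CPM in control males and 69.5, 85.9 and 111 CPM in Western-diet males, a difference of 0.23 ± 0.11 (edgeR adjusted p = 0.602). Sirt2 and Kmt2a thus had the sign seen in females, with overlapping ranges. Hdac5 and Cbx8 were the 2 with an unadjusted p under 0.05: Hdac5 ran over 12.6, 32.1 and 40.6 CPM in control males and 32.8, 43.7 and 62.2 CPM in Western-diet males, a difference of 0.67 ± 0.30 (edgeR adjusted p = 0.552), and Cbx8 differed by 0.28 ± 0.13 (edgeR adjusted p = 0.590).

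Of the other genes described for females, Hdac7 had medians of 60.4 and 62.6 CPM in control and Western-diet males, Kdm4a 42.0 and 51.1, Eed 112 and 104, Rnf2 81.5 and 78.3, Hdac4 25.3 and 29.2, Setd2 79.3 and 79.8, Kmt2b 28.5 and 27.6, and Crebbp 212 and 228 CPM. Of other members named by role, medians were 140 and 136 CPM for Ezh2, 50.0 and 44.0 for Ezh1, 24.4 and 25.9 for Bmi1, 292 and 279 for Hdac1, 99.7 and 122 for Kdm6b and 18.6 and 18.9 for Sirt1. In all of these the ranges of the diets overlapped and none passed the test.

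**Figure D3:**
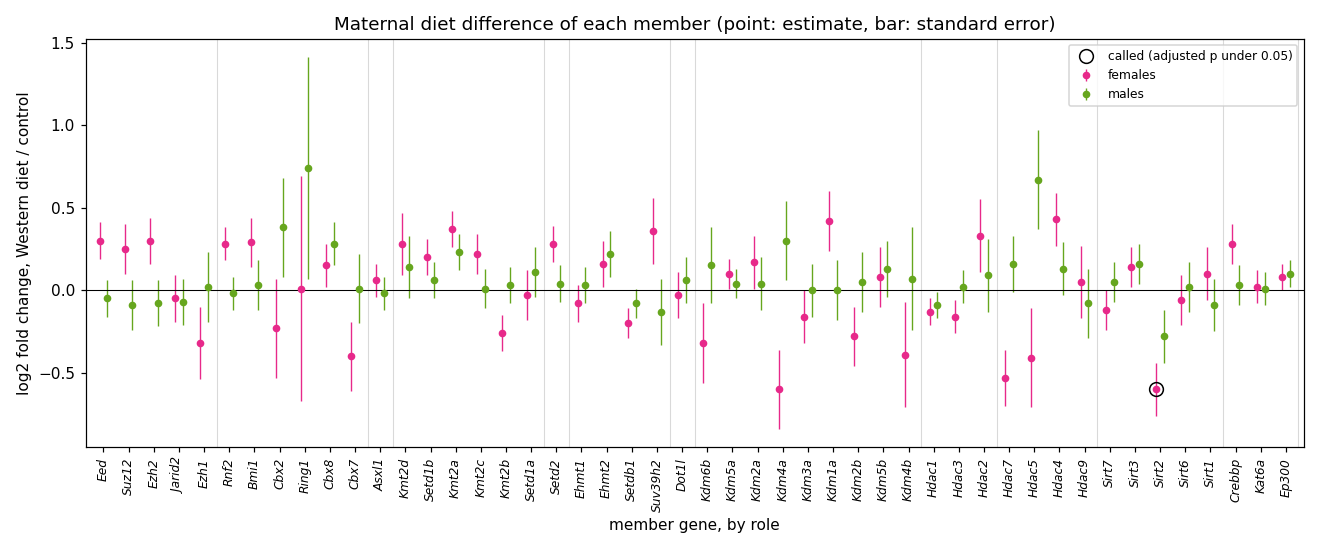
Log2 difference, Western diet over control, of each of the 48 genes in females and males, with its standard error as a bar and grey lines between role groups. Only Sirt2 in females, at -0.60, passed the test and is circled.

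Averaged over the sexes, 2 members passed: Sirt2 fell and Kmt2a rose. This is 4.17% of the 48 against 5.70% of all genes. The 1 member higher compares with 2.19% of all genes and the 1 lower with 3.51%. Sirt2 had a log2 difference of -0.44 ± 0.12 (SE, n = 12 per diet; edgeR adjusted p = 0.0237), 1.36-fold lower, and all 12 Western-diet libraries lay below the control mean of their sex. Kmt2a had 0.30 ± 0.08 (edgeR adjusted p = 0.0266), 1.23-fold higher, with 11 of 12 above. These averages contain the female libraries and are no independent support for the female result.

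The averaged call on Sirt2 ended without Western-diet male library 5 (edgeR adjusted p = 0.0562) and without either female pair of batch 3 (0.113 without the controls, 0.0556 without the Western-diet pair). It also ended with no batch term (edgeR adjusted p = 0.0549) and with batch 3 left out (0.432). The call on Kmt2a ended without any of 7 libraries: control female 1 or 4 (edgeR adjusted p = 0.0630 and 0.0534), Western-diet female 3 (0.0577), control male 3 (0.0517), or Western-diet male 1, 5 or 6 (0.0690, 0.0552 and 0.0655). It was also lost with no batch term (edgeR adjusted p = 0.0564), with no filter (0.0732) and with batch 1, 2 or 3 left out (0.126, 0.0741 and 0.285). Leaving out the control female pair of batch 3 ended it too (edgeR adjusted p = 0.0843). Of the exonic bases of Kmt2a, 2.27% are shared with an antisense gene. The share of reads outside annotated genes had medians of 9.02 and 10.13% in control and Western-diet females and 9.64 and 11% in males. In every group the library with the highest share had the highest Kmt2a value. The library with the lowest share had the lowest value, tied in control males. The part of that share in the Kmt2a result was not tested.

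Whether the diet difference itself differed between the sexes was tested as an interaction, and no member and no gene of the table (0%) passed the edgeR test. At an unadjusted p under 0.05 there were 5 of 48 members (10.4%) against 8.32% of all genes, with male minus female differences of 0.68 ± 0.24 for Hdac7, 0.90 ± 0.34 for Kdm4a, 1.08 ± 0.43 for Hdac5, -0.35 ± 0.15 for Eed and -0.30 ± 0.14 for Rnf2, all with an adjusted p of 0.589 to 0.596. DESeq2, which called 4 genes of the table, and limma-voom called no member either. For Sirt2 the interaction was 0.32 on the log2 scale, with a 95% interval of -0.13 to 0.77, so a female-specific fall was not shown.

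Of 101 other chromatin genes tested from a fixed list, 3 passed in females (2.97% against 5.42% of all genes) and 4 in the average (3.96% against 5.70%), in both a smaller share than over the whole table. In females Brd1, a scaffold of acetyltransferase complexes, rose from 45.1, 56.9 and 65.7 CPM in controls to 68.3, 73.8 and 84.9 CPM, every Western-diet library above every control. Its log2 difference was 0.45 ± 0.10 (edgeR adjusted p = 0.00957). Pcgf5, a Polycomb repressive complex 1 subunit related to Bmi1, rose from 43.8, 53.1 and 63.8 CPM to 61.7, 73.3 and 110 CPM, a difference of 0.55 ± 0.13 (edgeR adjusted p = 0.0164). Its 2 ranges met at their edges.

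Mta3, a subunit of the NuRD deacetylase complex, fell from 92.2, 108 and 122 CPM to 69.3, 79.8 and 120 CPM in females, by 0.30 ± 0.09 on the log2 scale (edgeR adjusted p = 0.0431). Western-diet libraries 1 and 2, at 120 and 93.8 CPM, lay within the control range and the other 4 below it, and leaving out any of 13 single libraries ended this call. For Pcgf5 only control female library 6 did so (edgeR adjusted p = 0.0508), and for Brd1 no single library did. Leaving out either female pair of batch 3 ended all 3 calls.

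In the average Carm1, an arginine methyltransferase, fell by 0.33 ± 0.09 and Pcgf1, a Polycomb repressive complex 1 subunit, by 0.26 ± 0.07, while Brd1 rose by 0.25 ± 0.07 and Pcgf5 by 0.32 ± 0.09 (edgeR adjusted p = 0.0307, 0.0309, 0.0435 and 0.0438). Each of these 4 averaged calls ended when any of 6 to 19 single libraries was left out. No Polycomb repressive complex 2 subunit, lysine 4 methyltransferase cofactor, demethylase or deacetylase of the list passed in either comparison.

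Some markers of other cells moved with maternal diet in the same libraries. Over all genes 3.22% fell and 2.20% rose in females, and 0.0102% passed in males. Of 12 markers of megakaryocyte-erythroid priming, 7 fell in Western-diet females, with a median log2 difference of -1.07, and their summed level ran over 1772 to 5223 CPM in control females and 961 to 1861 CPM in Western-diet females. In males their sum ran over 1270 to 3660 CPM in controls and 1010 to 1725 CPM under Western diet, and 1 of 12 fell. Of 10 mature erythroid markers 5 fell in females (median -0.83) and 0 of 10 in males by edgeR, where the median was -1.22 and 10 of 10 had an unadjusted p under 0.05. Their sums ran over 1218 to 8664 and 696 to 2844 CPM in control and Western-diet females, and over 2568 to 7017 and 922 to 3241 CPM in males.

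Granulocyte-monocyte markers rose for 2 of 11 in females, with sums of 2680 to 6125 CPM in controls and 4326 to 13091 CPM under Western diet. B cell markers rose for 3 of 10, with sums of 379 to 1192 and 524 to 2246 CPM. Of 20 G1/S genes 1 fell in females, with sums of 7006 to 10814 and 6577 to 8196 CPM. Of 12 stem cell markers 1 rose, with sums of 1268 to 2416 and 1585 to 2781 CPM. The G1/S and stem cell counts rest on 1 gene each, beside 3.22% of all genes lower and 2.20% higher. No marker of the mature neutrophil, mast and basophil, macrophage and dendritic, stroma and endothelium or G2/M lists passed in females. Of the T, NK and innate lymphoid list only Nkg7 did, and it rose. No defining marker of these lists was at 0 throughout a group, and the part of the cell mixture in the values of Sirt2 and Kmt2a was not tested.

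Between the sexes no member passed the edgeR test in control pups, in Western-diet pups or in their average, against 0.112%, 0.0816% and 0.184% of all genes. At an unadjusted p under 0.05 there were 7, 3 and 5 of 48 members, against 13.2%, 6.75% and 12.4% of all genes. In control pups, Hdac7 was nearest: its medians were 78.3 CPM in females and 60.4 CPM in males, with a male minus female difference of -0.51 ± 0.17 (log2; edgeR adjusted p = 0.196). The other 6 in control pups were Ring1 at -1.42 ± 0.68, Kdm4b at -0.70 ± 0.32, Kdm4a at -0.54 ± 0.24, Sirt7 at -0.28 ± 0.12, Eed at 0.23 ± 0.11 and Rnf2 at 0.24 ± 0.10. This comparison uses the same control females as the diet comparison, so the values are not independent of it. DESeq2 and limma-voom also called no member between the sexes.

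Demethylase genes on the sex chromosomes, which are no members, separated the sexes. Kdm6a (Utx), an X-linked lysine 27 demethylase known to escape X inactivation, ran over 70.9, 88.3 and 103 CPM in 12 females and 45.0, 53.0 and 58.4 CPM in 12 males, without overlap. Averaged over the diets the male minus female difference was -0.75 ± 0.06 (log2, SE; 1.68-fold; edgeR adjusted p = 9.99e-09). Its Y-linked paralog Uty had 1362 to 2459 counts in males and 0 to 4 in females. Kdm5d, also Y-linked, had 1005 to 1909 counts in males and 0 to 4 in females, so the labels of sex held in all 24 libraries.

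Kdm5c, the X-linked paralog of Kdm5d, overlapped between the sexes. It ran over 47.6, 158 and 232 CPM in females and 47.1, 119 and 162 CPM in males, with an averaged difference of -0.38 ± 0.18 (edgeR adjusted p = 0.401). By diet, Kdm6a differed by -0.11 ± 0.08 in females and -0.04 ± 0.08 in males, and Kdm5c by -0.48 ± 0.26 and 0.24 ± 0.26, none past the test.

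**Figure D4:**
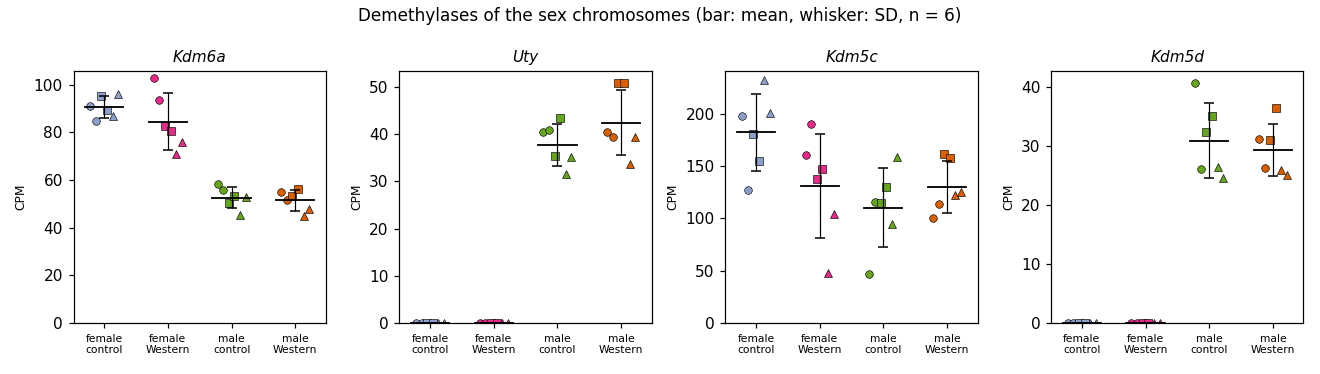
Level in CPM of the X-linked Kdm6a and Kdm5c and the Y-linked Uty and Kdm5d in every library by group, with the mean as a bar, the SD of 6 libraries as a whisker and circles, squares and triangles for batches 1, 2 and 3. Females exceed males without overlap for Kdm6a (70.9 to 103 against 45.0 to 58.4 CPM) but not for Kdm5c.

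More members differed between the labelled batches than between diets. In edgeR, with the groups in the model, 7 of 48 (14.6%) differed among the 3 batches, against 24.2% of all genes. Kdm6b was the clearest: its lowest, median and highest values over 8 libraries were 89.6, 149 and 242 CPM in batch 1, 63.0, 90.4 and 145 CPM in batch 2, and 33.7, 67.5 and 104 CPM in batch 3 (edgeR adjusted p = 0.000493). Batches 1 and 3 overlapped only between 89.6 and 104 CPM. The genes of this comparison were named after their values were seen.

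Cbx8 was highest in batch 2, at 12.3, 14.1 and 22.1 CPM against 8.60, 10.1 and 12.2 CPM in batch 1, where the ranges did not meet (edgeR adjusted p = 0.00146). Hdac9 was lowest in batch 3, with a highest value of 9.12 CPM against medians of 12.8 and 13.2 CPM in batches 1 and 2 (edgeR adjusted p = 0.00311). Ep300 had medians of 38.5, 45.3 and 36.5 CPM in batches 1, 2 and 3 (edgeR adjusted p = 0.0110). The others were Sirt3 with medians of 106, 127 and 101 CPM (0.0246), Cbx2 with 20.6, 33.3 and 21.2 CPM (0.0379) and Rnf2 with 81.6, 82.0 and 69.0 CPM (0.0462). By mean log2 CPM, 6 of the 7 were lowest in batch 3 and none was highest there, against 2309 and 1612 of the 4753 genes called by batch.

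Kdm6b, Cbx8 and Hdac9 kept their batch call under all 32 alternatives tried and Ep300 under 31, but Sirt3 lost it under 7, Cbx2 under 15 and Rnf2 under 25. The number of members that differed by batch became 4 without control female library 6, Western-diet female library 3 or Western-diet male library 3, and 11 without the Western-diet female pair of batch 3. Because each batch held 2 libraries of every group, batch and diet can be told apart, and batch stood in the model of every comparison above. Over the 48 genes, batch held a median of 12.7% of the variance of log2 CPM, group 15.2% and the remainder 68.6%. Batch and group take up some variance even where nothing differs, and no shares over all genes were set beside these. Whether the shares exceed that amount was not tested.

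**Figure D5:**
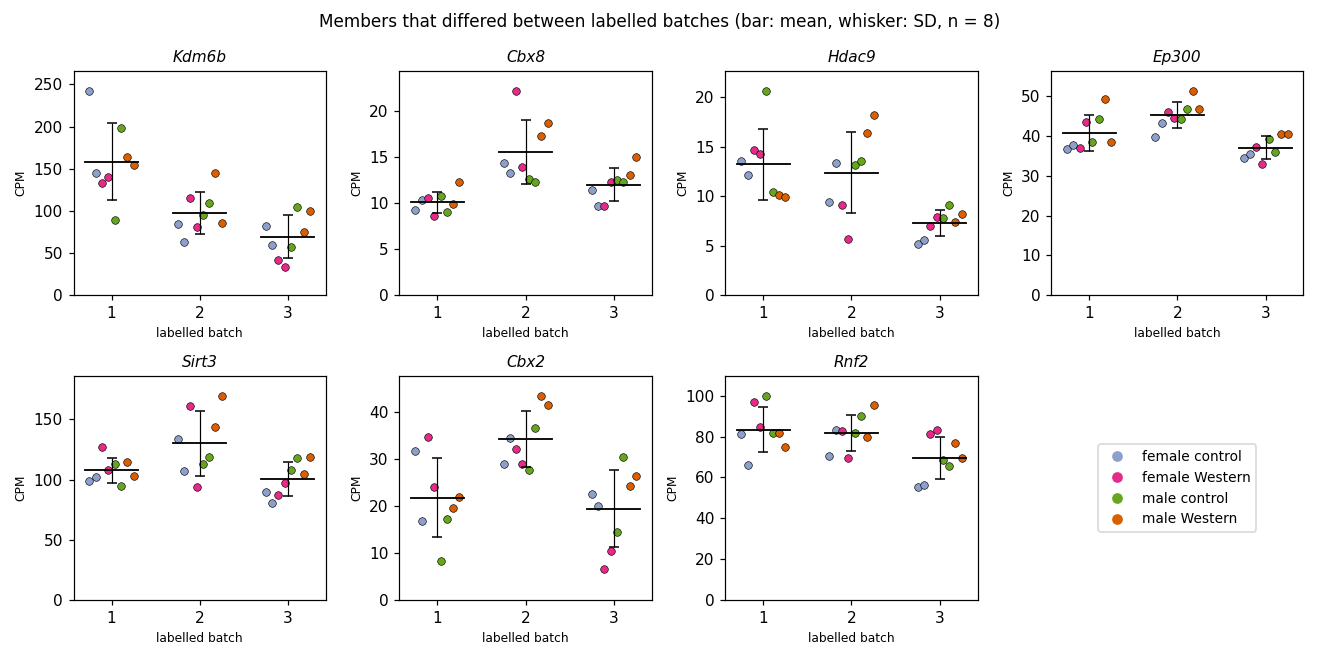
Level in CPM of the 7 genes that differed between labelled batches, by batch, with group as colour, the mean as a bar and the SD of 8 libraries as a whisker. Kdm6b is highest in batch 1 (89.6 to 242 CPM) and Cbx8 in batch 2 (12.3 to 22.1 CPM).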

How the data were processed

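Each of the 24 deposited files holds raw counts per gene, as whole numbers made by the authors. The submitters' processing notes name the tools FastQC, cutadapt, STAR, HTSeq and DESeq2 and mouse build GRCm39. Their versions, the gene annotation and the strand option of the counting were not given in the sources used here, and per the labels' protocols the RNA had an integrity number above 8.0. The 5 closing lines that name no gene held 31.04 to 39.26% of a library's total and stayed out of every step.

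Counts were tested in edgeR 4.0.16 (R 4.3.3) on all 24 libraries: filterByExpr, TMM scaling (factors 0.932 to 1.0525), and a robust quasi-likelihood fit with group and batch, with Benjamini-Hochberg adjustment over 19616 genes, called under 0.05, two-sided. Standard errors are the log2 difference divided by the root of F. CPM used TMM-corrected library sizes, and exon lengths and gene overlaps came from GENCODE M21, an older build than that of the files, so coordinates of the files were not used. The code was tested on simulated counts.

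The 48 members and all lists were chosen with earlier results of these data known. Values in every group are given for members called in any of 7 comparisons, filled to 10 by the smallest p in females, and for Ezh2, Ezh1, Bmi1, Kmt2a, Hdac1, Kdm6b and Sirt1. Of the other chromatin genes, up to 6 called per comparison are named, and always Kdm6a, Uty, Kdm5c and Kdm5d. Alternatives were other scalings and filters, DESeq2 1.42.0, limma-voom (limma 3.58.1), models without batch or with replicate number, and libraries left out. Leaving out the Western-diet female pair of batch 3 was added after seeing the data.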

Additional observations from a re-analysis of the deposited data

Results flagged for a closer look

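Of 192 sets of 6 libraries (48 genes in 4 groups), 17 (8.85%) held a highest or lowest library that stood apart. Its gap to the nearest of the others exceeded Dixon's critical value for 6 libraries. Chance gives about 1 in 20 for independent, normally spread values. These sets share libraries and span batches, and no share over all genes is given, so an excess was not tested. In Western-diet females, library 3 stood above the others for Kmt2d (337 CPM, the next 176), Kdm2a (266, next 136), Crebbp (360, next 244), Setd1b (132, next 82.9) and Hdac4 (50.3, next 31.8). In control females, library 5 stood above for Kdm5b (106, next 64.7), Kdm4b (49.7, next 18.9) and Suv39h2 (7.17, next 4.60) and below for Kat6a (24.4, next 35.6), and library 2 stood above for Suz12 (120, next 103) and Setd1a (17.8, next 12.6). In control males, library 2 stood above for Kmt2c (111, next 78.1), Kdm6b (198, next 109) and Sirt1 (28.3, next 19.6), and library 6 above for Sirt7 (168, next 123) and below for Kat6a (28.8, next 38). In Western-diet males, library 4 stood below for Ehmt2 (59.9, next 79.8). The 5 high values of Western-diet female library 3 come from the library with the largest share of reads outside annotated genes (16.38%), and the part of that share in them was not tested.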

How the results depend on the processing

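The call on Sirt2 in females was lost under 13 of 38 alternatives (edgeR, DESeq2 or limma adjusted p 0.000508 to 0.344), that on Sirt2 in the average under 5 of 37 and that on Kmt2a under 13 of 37, with no change of sign in any. In females the number of members called was 2 with upper quartile scaling, 3 with no filter, 2 with a stricter filter, 3 in DESeq2, 0 in limma-voom, 0 with no batch term, 0 with only the 2 groups compared, 8, 0 and 0 with batch 1, 2 or 3 left out, and 0 without either female pair of batch 3. Leaving out each library in turn gave 0 to 3. The 8 of 48 called without batch 1, where 9.36% of all genes were called, were Cbx7, Eed, Ezh2, Hdac5, Hdac7, Kdm4a, Setdb1 and Sirt2. Over all genes the share called was 5.83% with upper quartile scaling, 5.34% with no filter, 8.04% with a stricter filter, 9.05% in DESeq2 and 3.70% in limma-voom, and 0.734 to 2.06% in the other settings of this list. In the average the number was 1 with no filter, 0 with no batch term, 1, 1 and 0 with batch 1, 2 or 3 left out, 0 without the control and 1 without the Western-diet female pair of batch 3, and 0 to 2 without each library in turn. With no filter, under which fits of very low genes enter the shared spread, there were 2 in males (Hdac5 and Ring1), 3 for the interaction, 5 for sex in control pups, 2 in Western-diet pups and 2 averaged, and the last was also 2 without the Western-diet female pair of batch 3 (Ring1 and Sirt7). By batch there were 4 and 11 without the control or the Western-diet female pair of batch 3, and 4 to 8 without each library in turn. Sirt1 in females reversed to -0.01 in limma-voom. The causes of these changes were not tested.

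Replicate numbers recur across groups, so a replicate block in place of batch was fitted: it gave 1 member in females (Sirt2, edgeR adjusted p = 0.0386) and 2 in the average, while all genes called in females went from 1064 to 827. Same-numbered libraries correlated by -0.25 to 0.37 with group means removed, over 0.1 in 25 of 36 pairs. As not every pair exceeded 0.1, the numbers were not taken to pair the samples, and 15 of 24 libraries correlated best with their own number. Same-numbered libraries also share a batch. With group and batch means removed, the correlations ran from -0.43 to 0.17, over 0.1 in 1 of 36 pairs. Of 24 libraries, 0 then correlated best with their own number. The block ended the calls on Mta3 in females and on Pcgf1, Brd1 and Pcgf5 in the average. Even low genes such as Cbx7 and Suv39h2 had 110 to 444 and 129 to 351 counts per library, and whether depth limited the tests was not tested.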
